A study of Glycine max with 20 samples.

Results

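The genes described here were the 150 soybean genes whose expression in seeds of the cultivar DongNong 47 (DN47) was most specific to 55 days after flowering (DAF), the latest of 5 stages. For each of the 54174 genes with a GLYMA identifier, the mean RPKM of the 2 DN47 libraries was taken at each stage. RPKM is the read count of a gene scaled for its length and for the total count of the library. The 3713 genes with a 55 DAF mean of at least 20 RPKM were ranked by that mean divided by the largest mean of the other 4 stages plus 1, and the top 150 were kept. The tables list 57274 gene models in all. Every DN47 value therefore took part in the choice, so DN47 levels, and differences between the lines that use them, are given as a description without a test. The libraries of the second line took no part in the choice and carried all tests.

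The study measured transcripts in whole developing seeds by RNA-seq to find changes that go with loss of the α-subunit of β-conglycinin, a seed storage globulin and food allergen. The line cgy-2-NIL is a near-isogenic line that carries the cgy-2 allele, which removes this subunit, in the DN47 background. It was bred by repeated backcrossing with a single donor segment on chromosome 20, and DN47, its recurrent parent, has all subunits. Seeds of both lines, cotyledon and seed coat together, came from tagged flowers of 1 summer and were pooled within an age. The ages were 18, 25, 35, 50 or 55 DAF, with 2 biological replicates for each line and stage and 20 libraries in total. cgy-2-NIL stands for a few sister lines from 1 backcross parent, the pooling hides the spread between plants, and the other genes of the donor segment cannot be told apart from the allele.

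In legume seeds, filling of the cotyledons with storage protein and oil is followed by late maturation, when the seed loses water and becomes tolerant of drying. That phase is known for abscisic acid signalling and for late embryogenesis abundant proteins, small heat shock proteins, oleosins and sugars of the raffinose family, while storage protein transcripts decline. None of the 150 identifiers matched a gene name in the sources used here, and none was among the 123 GLYMA genes the study names, so no role is given to any of them.

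The libraries held between 18492047 and 30555808 counts. The genes GLYMA20G28650 and GLYMA20G28660, which encode the α-subunit, were at 0.0155 to 6.93 RPKM and 0 to 0.165 RPKM in the 8 cgy-2-NIL libraries of 25 to 55 DAF, against 7.93 to 100.3 RPKM and 0.892 to 92.4 RPKM in the 8 DN47 libraries. The labelled tissue was checked with 5 storage globulin genes, 4 for glycinin and 1 for the α′-subunit, whose summed level at 50 DAF was 158284 and 105700 RPKM in cgy-2-NIL, against 156944 and 133239 RPKM in DN47. At 55 DAF the sum was 6148 and 5070 RPKM in cgy-2-NIL, against 45110 and 40120 RPKM in DN47. One library stood apart for the genes described here. Replicate 2 of cgy-2-NIL at 50 DAF was above replicate 1 in 150 of the 150 genes. The main medians that use this stage in cgy-2-NIL, and several counts on RPKM values, are therefore also given without it.

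The 150 genes had medians near 1 RPKM up to 35 DAF and higher medians at 50 DAF in both lines. Together they held a large share of the seed's transcripts at 55 DAF. In cgy-2-NIL 75, 65 and 70 of them were under 1 RPKM at 18, 25 and 35 DAF, against 83, 72 and 77 in DN47. Their median level in cgy-2-NIL was 0.993, 1.31, 1.37, 16.4 and 206 RPKM from the youngest to the oldest stage, and without replicate 2 the 50 DAF median was 8.17 RPKM. In DN47, where the 55 DAF maximum was set by the choice, the medians were 0.748, 1.04, 0.917, 6.68 and 89.9 RPKM at the same stages. At 18 DAF they held 0.0553% and 0.0654% of all counts in the 2 cgy-2-NIL libraries, against 0.0557% and 0.0507% in the 2 DN47 libraries. At 55 DAF they held 14.9% and 15.4% of all counts in cgy-2-NIL, against 7.17% and 8.09% in DN47. In bulk seed, more cells of a type and more RNA per cell cannot be told apart.

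**Figure D1:**
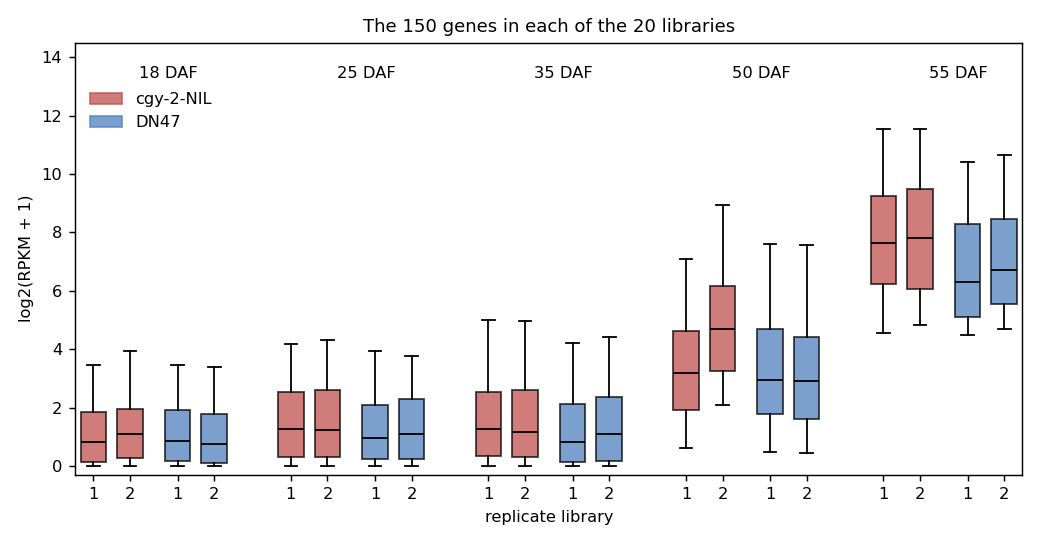
Level of the 150 genes in each of the 20 libraries, as log2(RPKM + 1), by stage, line and replicate. Boxes span the quartiles with the median as a line, and whiskers the 5th to 95th percentiles; the boxes stay low to 35 DAF and are highest at 55 DAF in both lines, and replicate 2 of cgy-2-NIL at 50 DAF (median 24.6 RPKM) lies above replicate 1 (median 8.17 RPKM).

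The values of the rule, which are a description, ran from 6.26 to 61.8 with a median of 9.52. The last genes inside the limit were GLYMA05G32491 at 6.27 and GLYMA11G37920 at 6.26. The first outside were GLYMA17G23602 at 6.26 and GLYMA15G10070 at 6.14, and at 55 DAF these were at 646 and 412 RPKM in cgy-2-NIL, against 364 and 60.3 RPKM in DN47. Genes on both sides of the limit thus had nearly the same value of the rule.

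GLYMA12G06300, on chromosome 12, had the largest value of the rule. At 55 DAF it was at 740 and 825 RPKM in cgy-2-NIL, against 208 and 282 RPKM in DN47. At 50 DAF it was at 3.66 and 30.4 RPKM in cgy-2-NIL, against 2.62 and 3.32 RPKM in DN47, and at 18, 25 and 35 DAF no library of either line was above 0.977 RPKM. The gene was thus detected at a low level in every library before 50 DAF, and its highest values were those of the 55 DAF libraries. GLYMA06G46450 had the largest value of the rule when it was taken over cgy-2-NIL. It had 0 and 0.0170 RPKM in the cgy-2-NIL libraries of 50 DAF and 0 in both DN47 libraries of that stage, and at 55 DAF it had 181 and 164 RPKM in cgy-2-NIL, against 21.4 and 40.4 RPKM in DN47. Its 55 DAF level in cgy-2-NIL was at least 2947-fold higher than at 50 DAF, taking 3 counts per library as the floor.

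Other genes of the top 10 differed in how far they had come by 50 DAF. GLYMA19G37460 was at 19.8 and 75.9 RPKM at 50 DAF in cgy-2-NIL and at 11.7 and 7.31 RPKM in DN47, and at 55 DAF at 1344 and 1571 RPKM in cgy-2-NIL and 432 and 589 RPKM in DN47. GLYMA06G43641 was at 43.8 and 159 RPKM at 50 DAF in cgy-2-NIL, against 35.4 and 22.2 RPKM in DN47. At 55 DAF this gene reached 3793 and 2980 RPKM in cgy-2-NIL, against 706 and 912 RPKM in DN47, and it took the largest part of the counts of the 150 genes in both cgy-2-NIL libraries (9.05% and 6.87%). GLYMA08G26780 was at 0.220 and 4.37 RPKM at 50 DAF in cgy-2-NIL, against 0.0625 and 0 RPKM in DN47, and at 116 and 126 RPKM at 55 DAF in cgy-2-NIL, against 39.0 and 50.8 RPKM in DN47. GLYMA08G10220 was the gene of the 10 that differed least between the lines at 55 DAF, with 230 and 180 RPKM in cgy-2-NIL, against 162 and 199 RPKM in DN47, and these values overlapped. GLYMA03G04910, GLYMA20G16600, GLYMA05G35590 and GLYMA17G04100 made up the rest, and in each of them both 55 DAF libraries of cgy-2-NIL were above both of DN47.

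**Figure D2:**
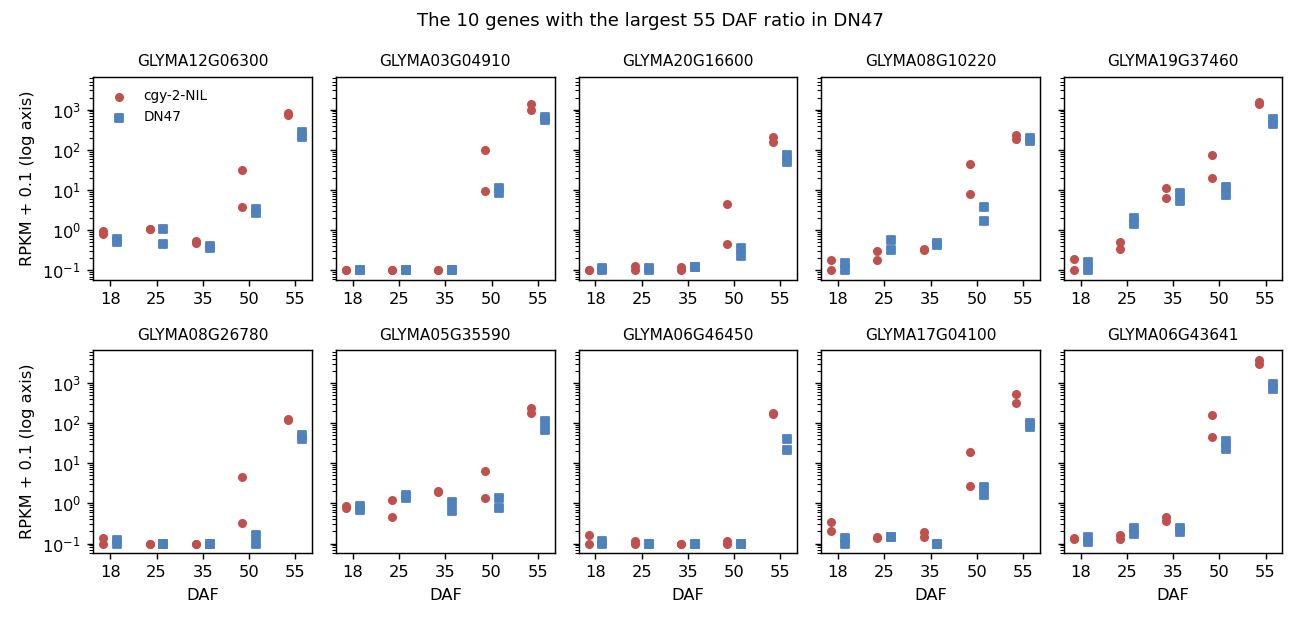
RPKM + 0.1 on a log axis at the 5 stages for the 10 genes with the largest value of the rule, with each library as a point (circles, cgy-2-NIL; squares, DN47). All 10 are highest at 55 DAF in both lines, and at 50 DAF the upper cgy-2-NIL point is replicate 2, for example 30.4 RPKM against 3.66 RPKM in replicate 1 for GLYMA12G06300.

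The profile in cgy-2-NIL, which the choice did not use, was tested with edgeR's quasi-likelihood test on the counts of its 10 libraries. A gene was called at a Benjamini-Hochberg adjusted p under 0.05 among the 39979 genes in the test. All 150 genes passed the filter on low counts and had their highest mean at 55 DAF in cgy-2-NIL. Between 55 and 50 DAF, 141 of the 150 were called higher at 55 DAF, against 26.8% of all genes tested and 57.0% of the tested genes with at least 20 RPKM at 55 DAF in DN47. None of the 150 was called lower, against 32.2% of all genes. At an unadjusted p under 0.05 none was lower either, since all fitted changes were positive, from 0.68 to 13.94 on the log2 scale. Over 4-fold higher calls numbered 132, against 6.84% of all genes and 13.8% of those with at least 20 RPKM. The median log2 fold change of the 150 was 3.36, against -0.09 over all genes tested. Without replicate 2 of cgy-2-NIL at 50 DAF the median of the 150 was 4.35, against -0.03 over all genes tested. Without replicate 1 it was 2.79, against -0.004 over all genes tested.

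Against the earlier stages every one of the 150 was called higher at 55 DAF. The shares of all genes called higher were 35.8% for 18 DAF, 35.0% for 25 DAF and 32.5% for 35 DAF. Over 4-fold higher calls numbered 150 for 18 DAF, 149 for 25 DAF and 150 for 35 DAF, against 15.2%, 14.0% and 11.8% of all genes. The exception was GLYMA11G24410, with a log2 fold change of 1.86 for 25 DAF. None of the 150 was called lower, against 44.2%, 43.7% and 41.5% of all genes in the same order. The median log2 fold changes for these 3 stages were 9.01, 8.19 and 7.41, and they were 8.96, 8.19 and 7.39 when the 23, 30 and 28 genes at or under 3 counts in both earlier libraries were put at their bounds. Higher calls against all 4 other stages together held for 141 genes, against 20.5% of all genes. In the RPKM values, both 55 DAF libraries of cgy-2-NIL were above its other 8 libraries in 147 of the 150 genes, against 11.2% of all GLYMA genes. Without replicate 2 of 50 DAF both were above the other 7 in all 150, against 11.9% of all GLYMA genes.

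The fitted changes spread widely. The largest after GLYMA06G46450 was in GLYMA20G23420, on chromosome 20, which was at 80.7 and 84.5 RPKM at 55 DAF and at 0.124 and 0.164 RPKM at 50 DAF in cgy-2-NIL (log2 fold change 9.10 ± 0.57 SE, edgeR adjusted p = 2.71e-06). Its replicates were close at both stages. GLYMA17G12481 was at 362 and 351 RPKM at 55 DAF and at 0.225 and 3.22 RPKM at 50 DAF in cgy-2-NIL (log2 fold change 7.57 ± 0.58 SE, edgeR adjusted p = 8.57e-06). GLYMA12G06300 had a log2 fold change of 5.51 ± 0.80 (SE) with an edgeR adjusted p of 0.000355. With 1 library left out, its change lay between 4.68 and 7.69 and that of GLYMA17G12481 between 6.78 and 10.54, with the highest value in both without replicate 2 of 50 DAF. GLYMA03G04910 was at 968 and 1403 RPKM at 55 DAF and at 9.50 and 96.3 RPKM at 50 DAF in cgy-2-NIL, and its call (log2 fold change 4.49 ± 1.07 SE, edgeR adjusted p = 0.0159) was lost in the DESeq2 test (adjusted p = 0.219) and in edgeR without the filter on low counts (adjusted p = 0.131). Its edgeR call was also lost without replicate 1 of 55 DAF (adjusted p = 0.0578) or replicate 2 of 55 DAF (adjusted p = 0.0805), and without replicate 2 of 50 DAF its log2 fold change was 6.92.

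The 9 genes not called between 55 and 50 DAF were GLYMA10G32820, GLYMA13G20170, GLYMA20G01430, GLYMA20G01416, GLYMA03G14950, GLYMA01G27005, GLYMA11G21260, GLYMA06G11750 and GLYMA07G01660. In each of them replicate 2 of cgy-2-NIL at 50 DAF was several-fold above replicate 1. GLYMA13G20170 was at 13.98 and 36.6 RPKM at 55 DAF and at 2.79 and 28.8 RPKM at 50 DAF in cgy-2-NIL, with groups that overlapped (log2 fold change 0.68 ± 0.96 SE, edgeR adjusted p = 0.586). In DN47 the same gene was at 31.7 and 45.6 RPKM at 55 DAF and at 1.78 and 0.626 RPKM at 50 DAF. GLYMA20G01430 was at 236 and 258 RPKM at 55 DAF and at 69.6 and 218 RPKM at 50 DAF in cgy-2-NIL (log2 fold change 0.77 ± 0.49 SE, edgeR adjusted p = 0.232). GLYMA11G21260 was at 10.6 and 12.2 RPKM at 55 DAF and at 3.04 and 9.73 RPKM at 50 DAF in cgy-2-NIL (log2 fold change 0.81 ± 0.40 SE, edgeR adjusted p = 0.111). Without replicate 2 of 50 DAF the log2 fold changes were 3.14 for GLYMA13G20170, 1.78 for GLYMA20G01430 and 1.86 for GLYMA11G21260, and GLYMA13G20170 was at -0.18 without replicate 1 of 50 DAF and at -0.22 without replicate 2 of 55 DAF. All 9 were called higher at 55 DAF than at 35, 25 and 18 DAF.

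The increase had begun by 50 DAF in cgy-2-NIL. In the same edgeR fit 139 of the 150 genes were called higher at 50 DAF than at 35 DAF, against 22.4% of all genes tested, and 128 were over 4-fold higher, against 4.43%. None was called lower, against 26.3%, although 2 of the fitted changes were negative. The median log2 fold change of the 150 from 35 to 50 DAF was 3.69, against -0.04 over all genes tested. Without replicate 2 of 50 DAF it was 2.68, against -0.06, and 9 of the fitted changes were negative. The 2 replicates of this stage differed by a median of 1.45 on the log2 scale over the 150 genes (replicate 2 over replicate 1, RPKM + 1), from 0.02 upwards, and 119 genes differed by over 2-fold. Over all GLYMA genes the same median was 0 and replicate 2 was the higher in 40.6%. Over the 3713 genes with at least 20 RPKM at 55 DAF in DN47 it was 0.22, with replicate 2 higher in 74.1%. The 150 genes held 0.757% of the counts of replicate 1 and 2.40% of those of replicate 2, against 0.765% and 0.734% in the 2 DN47 libraries of 50 DAF. The 5 storage globulin genes were lower in replicate 2 than in replicate 1, as given above. In no other group did more than 7 of the 150 genes differ by over 2-fold between replicates.

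**Figure D3:**
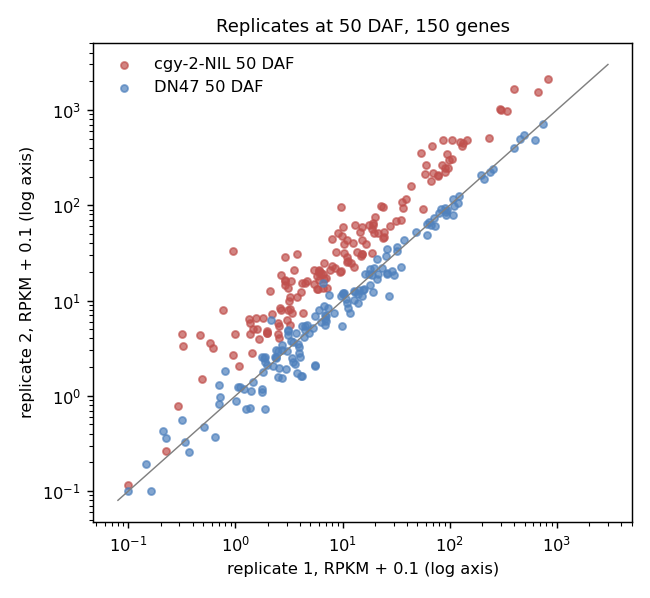
RPKM + 0.1 of the 150 genes at 50 DAF in replicate 2 (vertical, log axis) against replicate 1 (horizontal, log axis), for cgy-2-NIL and DN47, with the line of equal values. All 150 cgy-2-NIL points lie above the line (median log2 difference 1.45), and the DN47 points lie around it.

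The 150 genes fell into groups by their early levels. In 49 of them the mean was below 1 RPKM at 18, 25 and 35 DAF in both lines, and these had a median of 171 RPKM at 55 DAF in cgy-2-NIL, against 49.3 RPKM in DN47. At 50 DAF their medians were 9.53 RPKM in cgy-2-NIL and 2.82 RPKM in DN47, and without replicate 2 the cgy-2-NIL median was 3.02 RPKM. Of these 49, 45 were called higher at 55 than at 50 DAF in cgy-2-NIL. The remaining 101 had medians of 256 RPKM at 55 DAF in cgy-2-NIL and 114 RPKM in DN47. With all libraries 96 of these 101 were called higher at 55 than at 50 DAF in cgy-2-NIL. The share called was 26.8% of all genes tested and 57.0% of those with at least 20 RPKM at 55 DAF in DN47. No count was found in any of the 12 libraries of 18, 25 and 35 DAF for 5 genes, GLYMA03G04910, GLYMA11G36040, GLYMA20G01430, GLYMA08G08441 and GLYMA20G01416. For GLYMA11G36040, 50 DAF levels were 0.893 and 4.40 RPKM in cgy-2-NIL, against 0.267 and 0.157 RPKM in DN47, and at 55 DAF they were 115 and 145 RPKM in cgy-2-NIL, against 21.4 and 31.6 RPKM in DN47.

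Some genes had unscaled levels that were higher at 18 than at 35 DAF. In DN47 the stage with the second highest mean was 50 DAF for 116 genes, 18 DAF for 20, 25 DAF for 12 and 35 DAF for 2. In cgy-2-NIL it was 50 DAF for 137 genes, 18 DAF for 10 and 25 DAF for 3, and without replicate 2 of 50 DAF it was 50 DAF for 121, 18 DAF for 16, 25 DAF for 9 and 35 DAF for 4. For 24 genes the unscaled DN47 mean at 18 DAF was at least 1 RPKM and over 2-fold that at 35 DAF, and 20 of the 24 met the same condition in cgy-2-NIL. This count depended on scaling, since with the RPKM divided by TMM factors 10 of the 24 met it in DN47, and 7 of these 10 in cgy-2-NIL. The unscaled median of these 24 in cgy-2-NIL was 4.75, 2.99, 1.54, 10.4 and 63.9 RPKM across the 5 stages (4.63 RPKM at 50 DAF without replicate 2), and the TMM-scaled median was 3.01, 2.08, 1.61, 14.7 and 90.2 RPKM. The highest early level among them was that of GLYMA08G10153, whose mean was 24.8 RPKM at 18 DAF, 8.10 RPKM at 35 DAF and 603 RPKM at 55 DAF in cgy-2-NIL, and 27.6, 10.02 and 226 RPKM in DN47. GLYMA09G30370 was similar, with means of 20.1, 7.71, 2.06, 12.1 and 565 RPKM across the stages in cgy-2-NIL and 16.2, 3.93, 2.46, 6.54 and 149 RPKM in DN47. In these unscaled values both genes were lowest at 35 DAF in both lines. With TMM scaling GLYMA08G10153 was lowest at 25 DAF in both lines and GLYMA09G30370 at 35 DAF in both.

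The most abundant of the 150 genes were high in both lines. GLYMA20G28550 had the highest DN47 level, with 5284 and 6394 RPKM at 55 DAF in cgy-2-NIL, against 4902 and 5042 RPKM in DN47. It lies on chromosome 20, where the tables list 7 genes between it and GLYMA20G28650, so that it is near the allele in the order of identifiers, and whether it lies inside the donor segment was not tested. GLYMA16G03470 had the highest level in cgy-2-NIL, with 9584 and 9566 RPKM at 55 DAF, against 4172 and 5172 RPKM in DN47. GLYMA17G03600 was at 6088 and 6283 RPKM in cgy-2-NIL and 4698 and 4953 RPKM in DN47. GLYMA13G31120 and GLYMA10G35010 had means of 4813 and 5392 RPKM in cgy-2-NIL and 3774 and 3601 RPKM in DN47. In each of the 4 libraries of 55 DAF, the 10 genes with the most counts in that library held 45.2% to 49.9% of the counts of the 150. At this stage 28 genes in cgy-2-NIL and 15 in DN47 had a mean of at least 1000 RPKM.

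At 55 DAF most of the 150 genes were higher in cgy-2-NIL than in DN47. This is a description, since low 55 DAF values in DN47 could not enter the list. The median log2 ratio of the means, cgy-2-NIL over DN47 with 1 RPKM added, was 0.94, against 0 over all GLYMA genes and 0.12 over the 3713 genes with at least 20 RPKM. The ratio was above 0 in 125 genes and below 0 in 25. The mean was over 2-fold higher in cgy-2-NIL in 72 genes and over 2-fold lower in 4. Both cgy-2-NIL libraries were above both DN47 libraries in 113 genes, against 19.3% of all GLYMA genes and 47.6% of those with at least 20 RPKM, and both were below in 15, against 33.2% and 36.3%. The summed level of the 5 storage globulin genes was lower in cgy-2-NIL at this stage, as given above, and their part in the ratio was not tested. With the RPKM scaled by TMM factors the median was 1.12. Seeds were staged by days after flowering, so a difference in level and a difference in timing between the lines cannot be told apart.

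**Figure D4:**
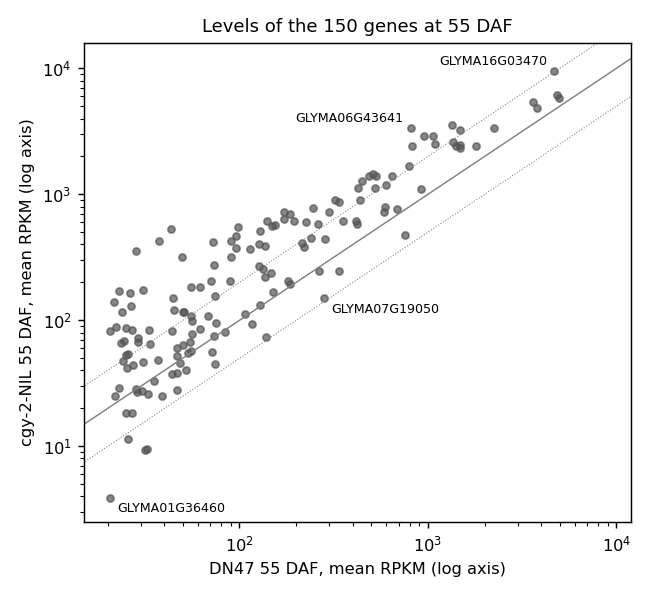
Mean RPKM at 55 DAF of the 150 genes in cgy-2-NIL (vertical, log axis) against DN47 (horizontal, log axis), with the line of equal levels and dotted lines at 2-fold. There are 125 points above the line of equal levels and 25 below, 72 lie above the upper dotted line, and GLYMA01G36460 is the lowest point.

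The largest ratios at 55 DAF were 12.7-fold in GLYMA17G12481, 12.3-fold in GLYMA08G08441 and 11.5-fold in GLYMA07G32070. GLYMA17G12481 was at 362 and 351 RPKM in cgy-2-NIL, against 15.8 and 40.5 RPKM in DN47. GLYMA08G08441 was at 491 and 580 RPKM in cgy-2-NIL, against 29.7 and 57.4 RPKM in DN47, and GLYMA07G32070 at 433 and 422 RPKM in cgy-2-NIL, against 29.0 and 45.4 RPKM in DN47. In these genes both cgy-2-NIL libraries were far above both DN47 libraries, and the ratio between the 2 libraries of a line was larger in DN47 than in cgy-2-NIL. GLYMA07G10973 and GLYMA18G46590 followed, at 7.41-fold and 6.40-fold.

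A few genes ran the other way. GLYMA01G36460 was at 4.93 and 2.89 RPKM at 55 DAF in cgy-2-NIL, against 20.7 and 20.4 RPKM in DN47, and was the only one of the 150 over 4-fold lower in cgy-2-NIL. GLYMA11G24410 was at 11.8 and 7.28 RPKM in cgy-2-NIL, against 35.5 and 28.8 RPKM in DN47. GLYMA17G10430 was at 8.17 and 10.5 RPKM in cgy-2-NIL, against 30.5 and 32.4 RPKM in DN47. With GLYMA11G21260 these were the 4 genes over 2-fold lower, and none of their values overlapped between the lines. Each of the 4 still had its highest mean at 55 DAF in cgy-2-NIL. GLYMA07G19050 was next, at 142 and 158 RPKM in cgy-2-NIL, against 268 and 295 RPKM in DN47.

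At 50 DAF the median log2 ratio of the lines was 1.08, with 145 genes higher and 5 lower in cgy-2-NIL. The rule divides by the largest DN47 mean outside 55 DAF, which was that of 50 DAF in 116 genes. Low 50 DAF values in DN47 thus favoured entry to the list, which can raise these ratios and counts. The shares given for comparison were not chosen on 50 DAF values, so the figures are a description. The size of this effect was not tested. Both cgy-2-NIL libraries were above both DN47 libraries in 81 genes, against 21.0% of all GLYMA genes. The share was 29.7% among genes with at least 20 RPKM at 55 DAF in DN47. The median and the split into higher and lower genes depended on replicate 2 of cgy-2-NIL. Without it the median was 0.18, with 90 genes higher and 59 lower, and without replicate 1 the median was 1.58. Replicate 1 alone was also above both DN47 libraries in 81 genes, against 30.0% of all GLYMA genes. The 55 DAF median stayed between 0.85 and 1.06 with any 1 of the 4 libraries left out. At 18, 25 and 35 DAF the medians were 0.03, 0.09 and 0.13.

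**Figure D5:**
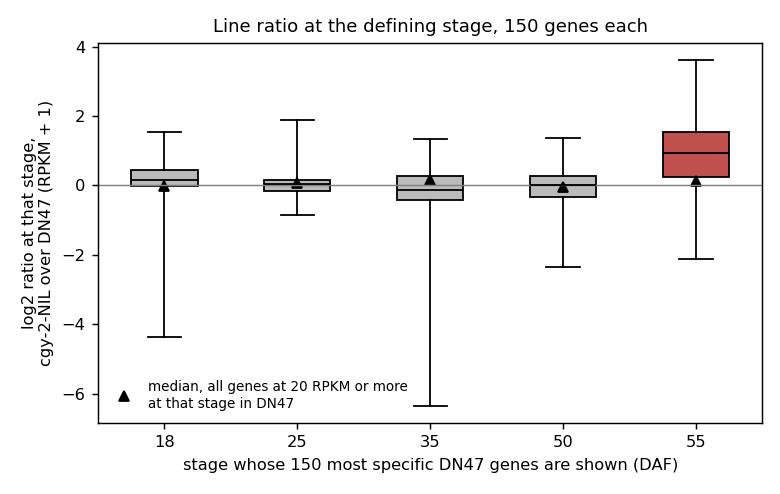
Log2 ratio of mean RPKM + 1, cgy-2-NIL over DN47, at the stage each list was chosen for, for the 150 genes the same rule gives at each of the 5 stages. Boxes span the quartiles with the median as a line, whiskers the range, and triangles mark the median of all genes with at least 20 RPKM at that stage in DN47; the medians are 0.17, 0.04, -0.12, 0.02 and 0.94.

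The same rule applied to DN47 at the other stages gave lists of 150 genes whose median log2 ratios, each at its own stage, were 0.17 for 18 DAF, 0.04 for 25 DAF, -0.12 for 35 DAF and 0.02 for 50 DAF. These lists were chosen on DN47 in the same way, but they were less specific to their stage. Their median values of the rule were 5.88, 1.99, 1.27 and 1.48 in the same order, against 9.52 at 55 DAF. The lists are thus not alike, and no test of the difference was made. All 150 of the 55 DAF genes had their highest mean at that stage in cgy-2-NIL, against 148, 139, 118 and 120 at 18, 25, 35 and 50 DAF. When the rule was run on cgy-2-NIL, 56 of its 150 genes at 55 DAF were shared with the DN47 list, which is 37.3% of each list. Without replicate 2 of 50 DAF 72 were shared (48.0%). With all libraries, the lists of the earlier stages, youngest first, shared 114, 11, 69 and 68 genes between the lines. These are 76%, 7.33%, 46% and 45.3% of each list, so the 55 DAF share of 37.3% was above that of 25 DAF only. Taken over cgy-2-NIL, the value of the rule was below 2 in 5 of the 150 genes, GLYMA13G20170, GLYMA20G01430, GLYMA11G24410, GLYMA11G21260 and GLYMA06G11750, and in 106 it reached the lowest DN47 value on the list. Without replicate 2 of 50 DAF it was below 2 in GLYMA11G24410 alone and reached that value in 134 genes.

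The 150 genes lay on all 20 chromosomes, as read from their identifiers, with 12 each on chromosomes 8 and 13 and 1 on chromosome 2. Among the listed identifiers, 4 pairs stood next to each other with no gene between them. GLYMA03G04910 and GLYMA03G04920 had 55 DAF means of 1186 and 584 RPKM in cgy-2-NIL, and 599 and 262 RPKM in DN47. GLYMA20G01416, GLYMA20G01423 and GLYMA20G01430 formed a run of 3, with 55 DAF means of 617, 1104 and 247 RPKM in cgy-2-NIL, and 416, 919 and 264 RPKM in DN47. Where such neighbours are near-identical copies, reads may not be assignable to 1 of them, so their separate levels are uncertain.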

How the data were processed

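The authors mapped cleaned reads to the soybean genome and the gene models of Ensembl Plants, counted them per gene with HTSeq, and deposited the raw counts. The authors derived the deposited RPKM from these counts, gene length and library total, with no scaling across libraries. The aligner, its version and the strand setting are not given in the sources used here. The members were found from RPKM. Counts of the 10 cgy-2-NIL libraries passed filterByExpr, were scaled by TMM and went into edgeR 4.0.16 (R 4.3.3), using quasi-likelihood tests, Benjamini-Hochberg adjustment, 1 mean per stage and 5 residual degrees of freedom. Each SE printed with a log2 fold change was derived from the test, as the absolute change divided by the square root of its F statistic. It is thus an approximate value. DESeq2 1.42.0 and limma 3.58.1 were alternatives. Other tables used Python 3.11.15, pandas 2.3.3 and numpy 2.4.6, and figures matplotlib 3.10.9. The fit was tested on simulated data.

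The members and lists were chosen with earlier results of these data known. The genes named in the text were the 10 with the largest value of the rule, the 5 highest and the 5 lowest ratios between lines, the 5 highest DN47 levels, the 3 highest and the 3 lowest changes from 50 to 55 DAF in cgy-2-NIL, and those at the limit of the rule. Other genes named were picked after their values were seen, as were the 50 against 35 DAF contrast, the line ratio at 50 DAF, the TMM-scaled early levels and the values without 1 library of 50 DAF outside the fits. No column was without a sample (0). Of the 54174 GLYMA identifiers, 0 matched the reference table of 59048 genes (assembly Glycine_max_v4.0), so the pathway keyword lists and promoter motifs planned were not used here and no coordinates are given.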

Additional observations from a re-analysis of the deposited data

How the results depend on the processing

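With at least 10 counts asked in every library only 81 of the 150 genes were tested. Of these, 77 were called higher at 55 than at 50 DAF in cgy-2-NIL, 70 of them over 4-fold. Calls against every other stage numbered 77, and 73 genes were higher at 50 than at 35 DAF. Over all 25372 genes tested in this setting the same counts were 8540, 1263, 6011 and 6212. Fewer genes were tested there by construction. With any 1 cgy-2-NIL library left out the median log2 fold change of the 150 from 50 to 55 DAF was 2.79 to 4.35. The median ratio of the lines was 0.85 to 1.06 at 55 DAF and 0.18 to 1.58 at 50 DAF. The other settings gave 134 calls between 55 and 50 DAF without a filter, 136 with DESeq2, 147 with limma-voom and 144 in a fit to all 20 libraries. Over all genes these were 10479 of 50973, 11186 of 39979, 10651 of 39979 and 11569 of 40721 in the same order. Upper-quartile factors moved the median of all genes to -0.27 and left 141 calls, against 8926 of all 39979 genes tested.

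With the replicate number as a block, 146 genes were called between 55 and 50 DAF, 136 of them over 4-fold, and the median log2 fold change was 3.47. Of all 39979 genes tested 10613 were called higher, 2753 of them over 4-fold. The deviations of same-numbered libraries correlated between -0.04 and 0.08. The labels do not say whether the numbers pair the samples, and weak correlations cannot decide it.

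GLYMA13G20170 changed direction to -0.18 without replicate 1 of 50 DAF and to -0.22 without replicate 2 of 55 DAF, and was 3.14 without replicate 2 of 50 DAF. GLYMA03G04910 lost its call without a filter, with DESeq2, and without either library of 55 DAF. GLYMA11G21260 and GLYMA20G01430 gained a call without replicate 2 of 50 DAF. The cause was not tested. Other settings of the rule shared between 100 genes (a minimum of 50 RPKM) and 138 genes with the list. With 2 replicates of pooled seeds in each group, the p-values measure the spread between these pools.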

Other observations

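The tables also list 3100 gene models without a GLYMA identifier, which the rule left out. In 6 of them the same ratio in DN47 reached the lowest value on the list, and all 6 were higher at 55 DAF in cgy-2-NIL. Novel01309 had a ratio of 55.7 and was at 404 and 389 RPKM at 55 DAF in cgy-2-NIL, against 142 and 168 RPKM in DN47. Novel01961, the most abundant, was at 558 and 578 RPKM in cgy-2-NIL, against 432 and 483 RPKM in DN47. Novel01767, Novel01895, Novel01838 and Novel00647 had 55 DAF means of 438, 165, 122 and 55.9 RPKM in cgy-2-NIL, against 184, 105, 43.8 and 26.9 RPKM in DN47.

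When the rule was run on cgy-2-NIL, 94 of its 150 genes at 55 DAF were not on the DN47 list. The first of these was GLYMA05G25000, with a 55 DAF mean of 95.1 RPKM in cgy-2-NIL, against 4.58 RPKM in DN47. GLYMA06G03430 was at a mean of 306 RPKM in cgy-2-NIL, against 4.92 RPKM in DN47, and GLYMA01G36620 at 302 RPKM in cgy-2-NIL, against 13.7 RPKM in DN47. In 4 of the 94 the 55 DAF mean was lower in cgy-2-NIL. GLYMA13G11890 had 57.7 RPKM in cgy-2-NIL, against 139 RPKM in DN47, where the highest mean of the other stages was 120 RPKM. GLYMA13G11860, GLYMA13G11961 and GLYMA13G12033, whose identifiers are close to it on chromosome 13, had 29.5, 79.0 and 29.5 RPKM in cgy-2-NIL, against 76.2, 172 and 74.3 RPKM in DN47, and their highest DN47 means at other stages were 58.6, 140 and 63.6 RPKM. These genes were chosen on cgy-2-NIL values and are given as a description.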
